A study of Mus musculus with 13 samples.

Results

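Copper entry, delivery, export, buffering and use were followed through 10 mouse genes in bulk RNA-seq of the cuprizone (CPZ) model. The genes were Slc31a1, Atp7a, Atp7b, Atox1, Ccs, Sod1, Mt1, Mt2, Mt3 and Cp, taken by symbol from the deposited gene annotation and not by any measured value. They are 10 of 55401 annotated genes, each symbol occurred once, and all 10 were among the 14985 genes with enough counts to be tested.

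The libraries came from 1 frozen hemisphere of each of 13 wild-type C57BL/6J male mice, 1 library per mouse. The control group (CTL, n = 5) ate normal chow for 6 weeks, the CPZ group (n = 4) ate chow with 0.3% cuprizone for 4 weeks, and the recovery group (RCV, n = 4) ate the cuprizone chow for 4 weeks and normal chow for the next 2 weeks. CPZ mice were collected at week 4 and the other mice at week 6. Diet and time of collection therefore cannot be told apart between CPZ and CTL, nor between CPZ and RCV. The label text and the study's methods give fewer mice per group than there are libraries, whereas another place in the study counts the 13 used here. RCV libraries carry titles that open with "Veh", and were placed by their treatment label, which names recovery. The labels give the mice as 6 to 8 weeks old, read here as the age at the start, whereas the study's text gives about 10 weeks. All libraries are of the whole hemisphere, so a lower value can be fewer cells of a type or less RNA per cell, and these cannot be told apart.

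Copper enters cells through CTR1, encoded by Slc31a1. The chaperone ATOX1 carries it to the pumps ATP7A and ATP7B, which load secreted enzymes and export copper, and the chaperone CCS carries it to superoxide dismutase 1 (SOD1). Metallothioneins bind zinc and copper through their cysteines, Mt1 and Mt2 being widely inducible and Mt3 being enriched in the brain. Ceruloplasmin, encoded by Cp, is a copper-dependent ferroxidase, made in the brain mainly by astrocytes as a membrane-anchored form that supports iron export. Cuprizone is a copper chelator, and the brain uses copper in antioxidant defence, respiration and neuropeptide processing.

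The 3 metallothionein genes among the members lie in a row on chromosome 8 of GRCm38, all on the plus strand, within a cluster of 43131 bases that also holds Mt4. Mt4 had 0 counts in every library. Mt3 spans chr8:94152607-94154146, Mt2 chr8:94172664-94173568 and Mt1 chr8:94179082-94180327. Slc31a1 lies at chr4:62360727-62391769, Atp7a at chrX:106027276-106124926, Sod1 at chr16:90220754-90226329 and Cp at chr3:19957054-20009145, all on the plus strand. Atp7b at chr8:21992785-22060305, Atox1 at chr11:55446641-55461239 and Ccs at chr19:4825366-4839332 are on the minus strand. The promoters of the 3 metallothionein genes are shown because one of these genes, Mt2, was called in these data and its neighbours were not. The metal-responsive factor MTF1 is known to bind a short element in metallothionein promoters. Capitals mark matches on either strand to TGCACNC or TGCGCNC, the cores of that element, in 280 bases that run from 250 before to 30 after the RefSeq start (GRCm38.p6), read 5′ to 3′.

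Mt1, chr8:94178839-94179118, + strand: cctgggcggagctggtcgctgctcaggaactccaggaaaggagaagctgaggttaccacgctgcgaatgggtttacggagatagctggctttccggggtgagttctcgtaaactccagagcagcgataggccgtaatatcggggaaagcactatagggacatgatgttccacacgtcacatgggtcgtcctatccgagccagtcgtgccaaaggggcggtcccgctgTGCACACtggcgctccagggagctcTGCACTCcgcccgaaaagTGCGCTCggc
Mt2, chr8:94172368-94172647, + strand: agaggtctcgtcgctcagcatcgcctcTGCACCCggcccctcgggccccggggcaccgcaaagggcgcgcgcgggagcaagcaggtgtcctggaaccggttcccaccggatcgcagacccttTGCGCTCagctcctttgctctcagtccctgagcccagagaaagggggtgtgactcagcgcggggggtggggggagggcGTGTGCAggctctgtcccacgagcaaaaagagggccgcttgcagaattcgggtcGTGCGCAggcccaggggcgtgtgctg
Mt3, chr8:94152357-94152636, + strand: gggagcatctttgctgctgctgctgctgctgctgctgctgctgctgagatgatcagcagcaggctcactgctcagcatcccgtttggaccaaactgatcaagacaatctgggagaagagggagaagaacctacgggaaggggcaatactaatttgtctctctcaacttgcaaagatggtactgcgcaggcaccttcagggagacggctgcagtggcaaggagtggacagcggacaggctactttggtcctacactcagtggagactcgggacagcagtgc

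The Mt2 window held 4 matches, the Mt1 window 3 and the Mt3 window 0. Counting the start itself as 1, the Mt1 matches began at -23, 3 and 21, and the annotation gives this gene 2 further starts, 129 and 159 bases downstream of its first. Those of Mt2 began at -223, -128, -50 and 5. Of the other members, Atp7a had 2 matches and Atp7b 1, whereas Slc31a1, Atox1, Sod1 and Cp had 0. A window was matched for 9 of the 10 members, all but Ccs. Over all 32851 promoter windows of this length, 24.1% held at least 1 match, 6.37% at least 2, 1.73% at least 3 and 0.405% at least 4. A match describes the letters in a window and is not a measured binding site. RefSeq starts were not always those of the annotation. The Mt2 window ended at 94172647, before the annotated start at 94172664, and the Mt1 window ended at 94179118, past the annotated 94179082. The windows thus cover different stretches beside these starts, and a difference between the promoters was not tested.

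Levels between genes were compared in TPM, which the authors scaled to transcript length. In CTL the highest mean level was that of Sod1 at 607 TPM, followed by Mt3 at 558, Mt1 at 507 and Mt2 at 265. Atox1 (90.6 TPM) and Ccs (34.0) came next, then Slc31a1 (15.7), Cp (11.5), Atp7a (4.70) and Atp7b (1.80). The libraries of Sod1 and Mt3, of Mt3 and Mt1, and of Slc31a1 and Cp overlapped in CTL, and the other neighbours in this order did not. The order of the first 3 genes differed between groups, with Mt3 (641 TPM) highest in CPZ and Mt1 (582 TPM) highest in RCV, where neighbours among these 3 genes again overlapped. From the fourth place down, the order of means was that of CTL in every group, with Mt2 always below Sod1, Mt1 and Mt3. The libraries of Slc31a1 and Cp also overlapped in CPZ and RCV, and their RCV means were 13.3 and 12.9 TPM.

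Differences between groups were tested on the estimated counts and are given as log2 fold changes with their standard error (SE). Levels within a gene are counts scaled to a common library size by TMM (CPM), listed in the order of the replicate numbers. Unless limma is named, adjusted p values are those of edgeR's quasi-likelihood test, adjusted over all 14985 genes by the Benjamini-Hochberg method, and a gene was called below 0.05. As far as the labels say, each library is a separate mouse. The 3 comparisons share their libraries and are not independent of each other.

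Between CPZ and CTL, 2 of the 10 members were called, Cp and Mt2, both higher in CPZ, and 0 were called lower. Across all genes tested, the share called was 10.2%, with 7.66% higher and 2.50% lower. At an unadjusted p under 0.05 the count was 6 of 10 members, beside 22.1% of all genes, and the other 4 were Atp7a, Mt1, Mt3 and Atox1. The members' median log2 fold change was 0.29 and that of all genes was -0.02. In 2 members, again Cp and Mt2, every CPZ library was above every CTL library, and in 0 members every one was below. Of all genes, 13.1% had groups that did not overlap, 8.25% with CPZ higher and 4.86% with CPZ lower.

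Between RCV and CTL, 0 of the 10 members were called, and only Mt2 had an unadjusted p under 0.05. Across all genes, the share called was 0.374%, with 0.360% higher and 0.0133% lower in RCV, and 6.20% had an unadjusted p under 0.05. No other tool run (DESeq2, limma-voom or limma on TPM) called a member here. The members' median was -0.05. Groups overlapped for all 10 members, whereas 2.90% of all genes had groups that did not overlap, 2.21% with RCV higher and 0.687% with RCV lower.

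Between CPZ and RCV, 1 member was called, Cp, which was higher in CPZ, and 0 were called lower. Across all genes, the share called was 7.01%, with 5.13% higher and 1.88% lower in CPZ. At an unadjusted p under 0.05 the count was 5 of 10 members, Cp with Atox1, Mt3, Atp7a and Slc31a1, beside 19.1% of all genes. The members' median was 0.23. In 3 members, Cp, Atp7a and Atox1, every CPZ library was above every RCV library. Of all genes, 13.2% had groups that did not overlap here, 8.26% with CPZ higher and 4.93% with CPZ lower.

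**Figure D1:**
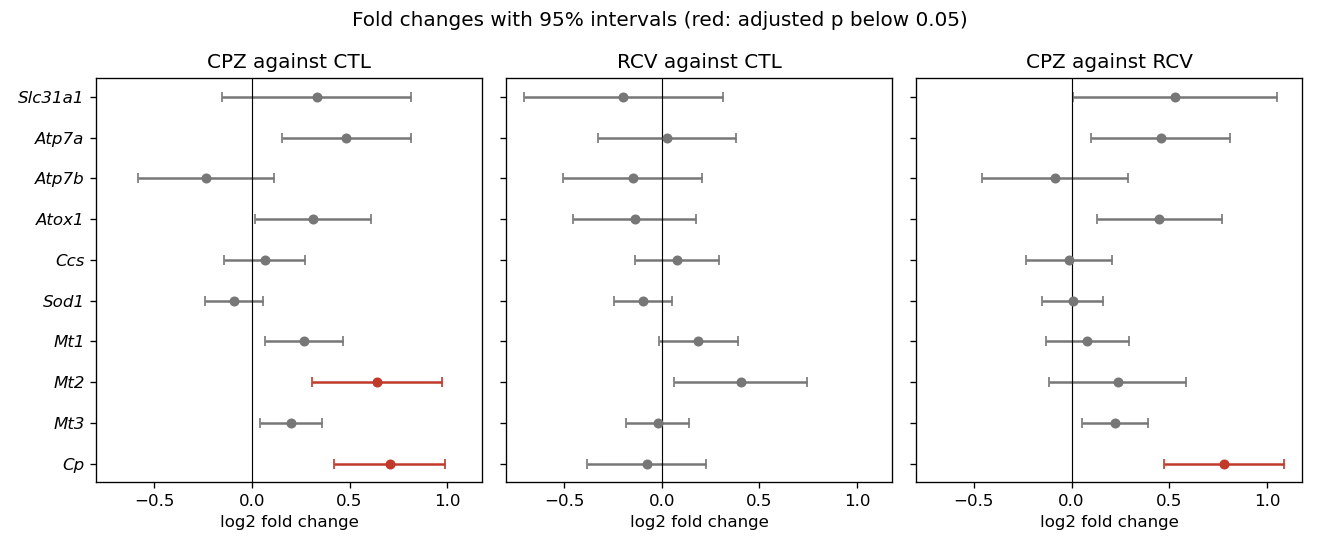
Log2 fold changes (x axis) of the 10 copper genes (y axis) with 95% intervals in the 3 comparisons, red where the adjusted p was below 0.05. Cp and Mt2 are red in CPZ against CTL, Cp alone in CPZ against RCV, and no gene in RCV against CTL.

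Slc31a1, the uptake transporter, varied more between libraries of a group than any other member, with a coefficient of variation of its CPM from 23.6% in CPZ to 31.1% in CTL. Its CPM was 23.8, 26.6, 43.2, 22.6 and 23.3 in CTL, 47.0, 28.7, 35.4 and 29.96 in CPZ, and 23.6, 33.5, 19.6 and 20.0 in RCV. CPZ libraries were above 4 of the 5 CTL libraries, and CTL replicate 3 was above 3 of the 4 CPZ libraries. The log2 fold change was 0.33 with SE 0.22 in CPZ against CTL (adjusted p = 0.448), -0.20 in RCV against CTL (adjusted p = 0.984) and 0.53 in CPZ against RCV (adjusted p = 0.257, edgeR), and none was called. Single libraries moved these values. In CPZ against CTL the log2 fold change was 0.55 without CTL replicate 3 (adjusted p = 0.0778) and 0.17 without CPZ replicate 1 (adjusted p = 0.791). It was 0.02 in RCV against CTL without CTL replicate 3 and -0.40 without RCV replicate 2. Leaving out CPZ replicate 1 gave 0.37 in CPZ against RCV, and leaving out RCV replicate 2 gave 0.73. The library values moved with markers of the choroid plexus, the secretory epithelium of the ventricles. Within groups, the correlation of log2 CPM of Slc31a1 with the choroid plexus score was r = 0.83 over the 13 libraries. It was 0.75 with the red blood cell score and -0.75 with the neuron score. Genes read in the same library share its depth and dissection.

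The choroid plexus list holds 9 markers, 0 of which were called in any comparison, at an adjusted or an unadjusted p under 0.05, by edgeR. Its defining marker Ttr encodes transthyretin. Summed over the list, the level was 758 to 5162 TPM in CTL, 1153 to 4371 in CPZ and 16.2 to 2687 in RCV. CTL replicate 3 had the highest sum of its group, as had CPZ replicate 1 and RCV replicate 2, and each of these libraries was also the highest of its group for Slc31a1. The sum was 18.9 TPM in RCV replicate 3, with Folr1 and Kcne2 at 0 counts, and 16.2 in RCV replicate 4, with Slc4a5 at 0. With the choroid plexus score as a covariate, the log2 fold change of Slc31a1 was 0.28 in CPZ against CTL, 0.03 in CPZ against RCV, down from 0.53, and 0.25 in RCV against CTL, where it was -0.20 without the covariate (adjusted p = 0.785 with it). Within groups, r with the same score was 0.71 for Ccs, 0.61 for Atox1, 0.55 for Sod1 and 0.49 for Atp7b. It was 0.45 for Mt1, 0.38 for Atp7a, 0.38 for Mt2, -0.08 for Cp and -0.13 for Mt3. The score was 0.68 and 0.59 in RCV replicates 3 and 4 and at least 3.30 in every other library. Its low values were thus all in RCV, and the covariate is tied to group. The share of the plexus in these values was not tested.

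Atox1, the chaperone that hands copper to both pumps, had CPM of 13.3, 16.8, 15.7, 15.4 and 20.4 in CTL. In CPZ the CPM was 24.5, 19.0, 17.9 and 19.4, and in RCV it was 17.0, 16.5, 13.9 and 11.1. Every CPZ library was above every RCV library and above 4 of the 5 CTL libraries, with CTL replicate 5 above 3 of the CPZ libraries. The log2 fold change was 0.45 with SE 0.15 in CPZ against RCV (adjusted p = 0.0952) and 0.31 with SE 0.14 in CPZ against CTL (adjusted p = 0.202), neither of them called in this fit. With no filter on counts, the value in CPZ against RCV was 0.48 and was called (edgeR adjusted p = 0.0453). In RCV against CTL it was -0.14 (adjusted p = 0.98). With the choroid plexus score as a covariate, the value in CPZ against RCV was 0.23 (adjusted p = 0.632).

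Atp7a, the pump for secreted enzymes and export in most tissues, had CPM of 7.07, 12.3, 9.99, 9.17 and 12.1 in CTL. It had 15.6, 12.5, 16.8 and 11.6 in CPZ and 10.1, 10.7, 9.62 and 10.6 in RCV. CPZ libraries were above all RCV libraries, and 3 of 4 were above all CTL libraries, with CPZ replicate 4 below CTL replicates 2 and 5. The log2 fold change was 0.48 with SE 0.16 in CPZ against CTL (95% interval 0.15 to 0.81, adjusted p = 0.0626) and 0.46 in CPZ against RCV (adjusted p = 0.132). In RCV against CTL it was 0.03 (adjusted p = 0.998). Atp7a rests on 49 to 121 counts per library and was not called. In CPZ against CTL its log2 difference ran from 0.32 to 0.57 over 24 alternative settings, with adjusted p from 0.0373 to 0.444, and 4 of them called it. These were the edgeR fits without CTL replicate 2 (0.0373), without CTL replicate 5 (0.0459), without CPZ replicate 4 (0.0399) and with no filter on counts (0.0392).

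Atp7b, the pump best known from liver, was the lowest member, with 23 to 42 counts per library. Its CPM lay between 4.40 and 6.42 in CTL, 4.26 and 5.69 in CPZ, and 4.43 and 5.99 in RCV, and all groups overlapped. It was not called in any comparison (log2 fold change -0.23 in CPZ against CTL, 95% interval -0.58 to 0.11, adjusted p = 0.464).

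Ccs and Sod1, the chaperone and its client enzyme, had log2 fold changes between -0.10 and 0.08 in every comparison. The CPM of Ccs lay between 11.01 and 13.4 in CTL, 11.7 and 13.5 in CPZ, and 11.5 and 13.8 in RCV. The log2 fold change of Ccs was 0.07 in CPZ against CTL (95% interval -0.14 to 0.27, adjusted p = 0.794). Sod1 lay between 136 and 163 CPM in CTL, 127 and 148 in CPZ, and 131 and 153 in RCV. Its log2 fold change was -0.09 with SE 0.070 in CPZ against CTL (95% interval -0.24 to 0.06, adjusted p = 0.525) and 0.01 in CPZ against RCV (adjusted p = 0.985), with a 95% interval of -0.15 to 0.16. Of the 4008 stretches of 50 bases in the Sod1 transcripts, 137 (3.42%) also occur in the processed pseudogene Gm8566, which held 0 to 3.23 estimated counts per library, and the other members shared 0 such stretches with another gene.

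**Figure D2:**
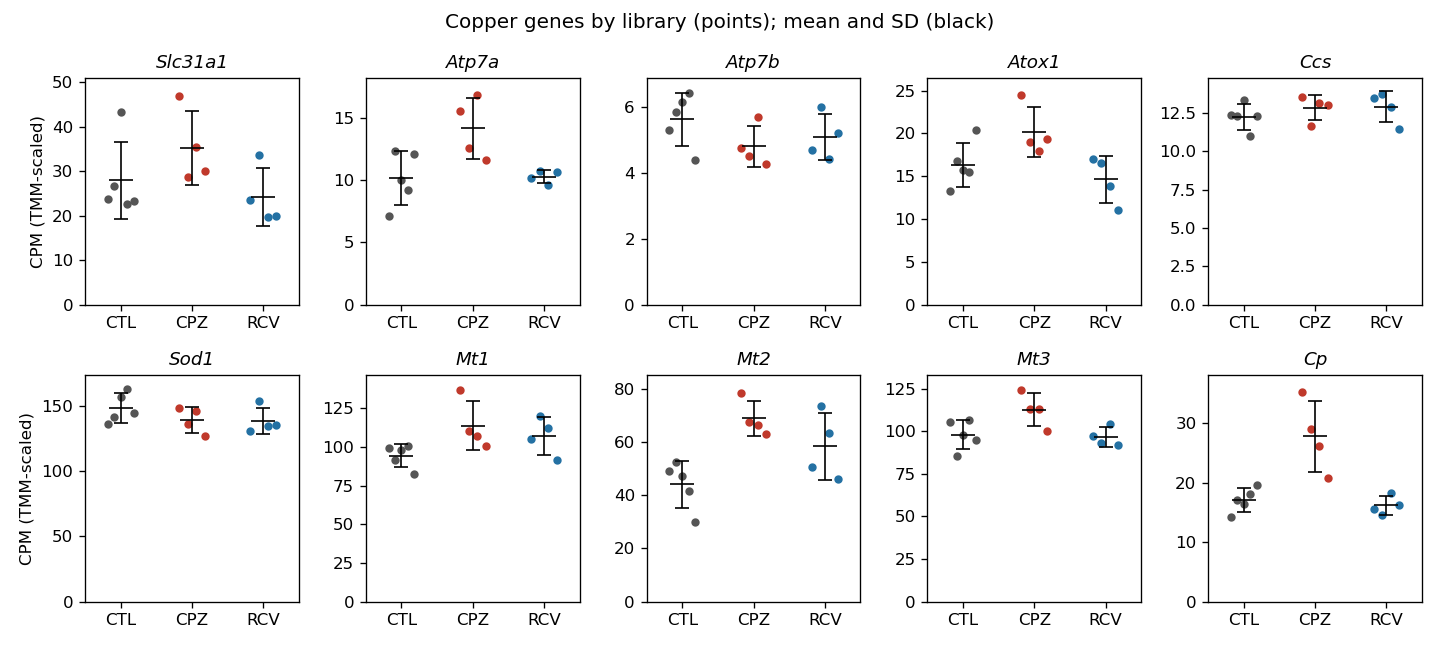
CPM scaled by TMM (y axis, from 0) of the 10 genes in each library (points) of CTL (n = 5), CPZ (n = 4) and RCV (n = 4), with group mean and SD in black. CPZ points of Mt2 and Cp all lie above the CTL points, and 1 CTL point of Slc31a1 stands at 43.2, away from the other 4.

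Mt2, an inducible metallothionein, was higher in CPZ than in CTL in every library. Its CPM was 48.9, 52.4, 47.2, 41.4 and 30.1 in CTL, 78.5, 67.3, 66.5 and 63.1 in CPZ, and 50.4, 73.6, 63.3 and 46.0 in RCV. RCV libraries were spread over both ranges: 2 were above all CTL libraries, and these were also within the CPZ range, while the other 2 were within the CTL range. Mt2 was 1.56-fold higher in CPZ than in CTL (log2 0.64, SE 0.15, 95% interval 0.31 to 0.97, edgeR adjusted p = 0.015). In RCV against CTL the log2 fold change was 0.40 (95% interval 0.06 to 0.74, adjusted p = 0.633), and in CPZ against RCV it was 0.24 (95% interval -0.11 to 0.59, adjusted p = 0.487). The latter was 0.07 with the choroid plexus score as a covariate (adjusted p = 0.931), and it ran from 0.15 without RCV replicate 4 to 0.37 without RCV replicate 2. RCV therefore passed the test against neither group. Without CPZ replicate 1, the log2 fold change in CPZ against CTL was 0.58 and was no longer called (edgeR adjusted p = 0.0572). The antisense gene Gm45774 shares 432 exonic bases with Mt2, and it held 0 to 10 counts per library beside 164 to 554 for Mt2.

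Mt1, the neighbour of Mt2, had a smaller difference. Its CPM was 99.1, 91.4, 98.1, 101 and 82.7 in CTL, 137, 111, 107 and 101 in CPZ, and 105, 120, 112 and 91.5 in RCV. Of the 4 CPZ libraries, 3 were above all CTL libraries, as were 3 of the 4 RCV libraries. The log2 fold change was 0.27 with SE 0.094 in CPZ against CTL (adjusted p = 0.0908) and 0.19 in RCV against CTL (adjusted p = 0.842). In CPZ against RCV it was 0.08 (adjusted p = 0.743), and no edgeR comparison of Mt1 was called.

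Mt3, the brain metallothionein, had CPM of 106, 85.4, 97.7, 106 and 94.99 in CTL, 125, 113, 113 and 100.2 in CPZ, and 97.1, 93.2, 105 and 91.9 in RCV. CPZ replicates 1 to 3 were above every CTL and RCV library, and CPZ replicate 4 was within the range of both groups. The log2 fold change was 0.20 with SE 0.075 in CPZ against CTL (adjusted p = 0.111) and 0.22 in CPZ against RCV (adjusted p = 0.123). In RCV against CTL it was -0.02 (95% interval -0.18 to 0.14, adjusted p = 0.998).

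The 3 metallothioneins together summed to 1330 ± 88.2 TPM in CTL (SD, n = 5), 1668 ± 183 in CPZ (SD, n = 4) and 1495 ± 143 in RCV (SD, n = 4). Mt2 made up 19.9% ± 3.28 of that sum in CTL, 25.0% ± 0.413 in CPZ and 23.7% ± 2.89 in RCV (SD). Every CPZ library had an Mt2 share between 24.7% and 25.6%, above every CTL library (15.8% to 24.5%). The RCV shares of 21.4%, 27.5%, 24.3% and 21.5% overlapped both groups. Mt3 made up 42.0% in CTL, 38.5% in CPZ and 37.4% in RCV. These shares and sums are descriptions of values already tested gene by gene.

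**Figure D3:**
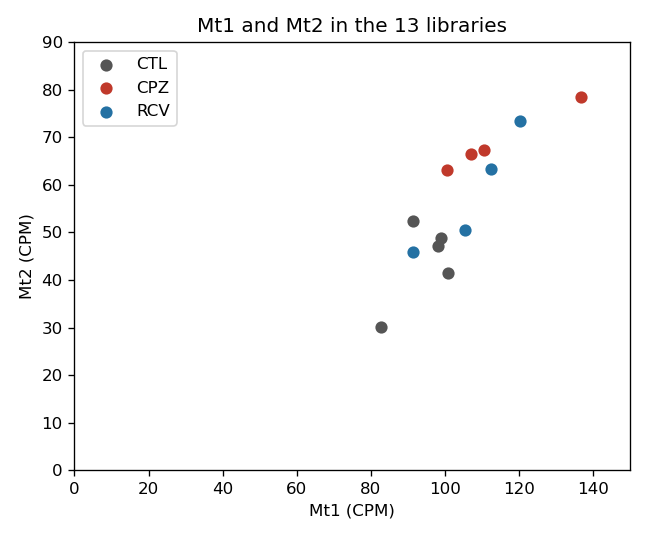
Mt1 (x axis, CPM) against Mt2 (y axis, CPM) in each of the 13 libraries, coloured by group. The CPZ points lie at 63.1 to 78.5 CPM of Mt2, above all CTL points, and RCV points lie along the same direction between 46.0 and 73.6.

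Mt1 and Mt2 had the closest library values of any pair of members. Over the 13 libraries their log2 CPM gave r = 0.86, and r = 0.75 after the group means were removed. Mt1 and Mt3 gave 0.66 and 0.64, and Mt2 and Mt3 gave 0.46 and 0.15. Genes read in the same library share its sequencing depth, dissection and cell makeup. In CPM, CPZ replicate 1 was the highest library of its group for 8 of the 10 members, all but Atp7a and Atp7b. RCV replicate 2 was the highest of its group for 7 of the 10, all but Atox1, Mt3 and Cp. Among 14143 tested genes whose mean log2 CPM was 1 or more, those most like Mt2 over the 13 libraries were the checkpoint kinase Chek2 (r = 0.96), Scfd1 (0.95), which acts in vesicle transport, and the stress gene Gadd45g (0.92).

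In the edgeR fit of all libraries, Cp had the largest log2 fold change of the members in CPZ against CTL and in CPZ against RCV. On TPM it did not, since in CPZ against CTL the mean ratio was 1.57 for Mt2 and 1.54 for Cp, and in CPZ against RCV it was 1.46 for Slc31a1, 1.43 for Atp7a and 1.37 for Cp. Its CPM was 14.1, 17.1, 16.4, 18.04 and 19.6 in CTL, 35.1, 28.9, 26.2 and 20.8 in CPZ, and 15.5, 14.6, 18.3 and 16.3 in RCV. Every CPZ library was above every CTL and RCV library, and CPZ replicate 4 was the lowest of its group. Cp was 1.63-fold higher in CPZ than in CTL (log2 0.70, SE 0.13, 95% interval 0.42 to 0.99, edgeR adjusted p = 0.00179). It was 1.72-fold higher in CPZ than in RCV (log2 0.78, SE 0.14, 95% interval 0.48 to 1.09, edgeR adjusted p = 0.00318). RCV differed from CTL by -0.08 (95% interval -0.38 to 0.23, adjusted p = 0.995), and on CPM the RCV libraries lay within 14.1 to 19.6, the range of CTL.

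On the TPM scale, the Cp difference between CPZ and RCV was smaller. TPM of Cp was 11.1, 13, 9.70, 9.77 and 13.9 in CTL, 22.9, 17.4, 15.9 and 14.7 in CPZ, and 15.1, 13.4, 10.6 and 12.7 in RCV. CPZ libraries were still above all CTL libraries, but RCV replicate 1 was above CPZ replicate 4. The mean ratio was 1.54 in CPZ against CTL and 1.37 in CPZ against RCV. limma on log2(TPM + 1) gave log2 differences of 0.58 (adjusted p = 0.0338) and 0.42 (adjusted p = 0.208) for these comparisons, so CPZ against RCV was not called on TPM. RCV against CTL had the opposite sign to the counts on this scale, with a mean ratio of 1.13 and a limma difference of 0.16 (adjusted p = 0.891), and RCV replicate 1 was above the CTL range. A count is not corrected for transcript length and TPM is, and the ratio of these scales for Cp, CPM per TPM, ran from 1.03 in RCV replicate 1 and 1.08 in RCV replicate 2 to 1.85 in CTL replicate 4. Its highest value over its lowest, after library scaling, was 1.84, larger than in 87.8% of 14781 genes, and it was 1.02 to 1.33 for the other members. Cp has 16 annotated transcripts. It shares 108 exonic bases with Hps3 on the other strand, which held 73 to 199 counts per library, and whether counting used strand is not stated.

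**Figure D4:**
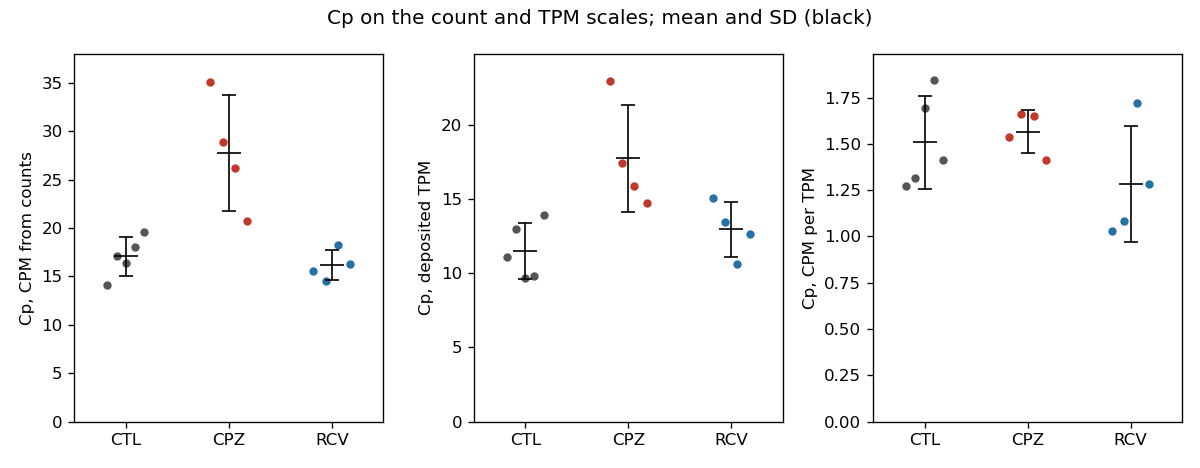
Cp in each library on 3 y axes that start at 0: CPM from the estimated counts, the deposited TPM, and CPM per TPM, with group mean and SD in black. CPM separates CPZ from both groups, TPM separates it from CTL only, and CPM per TPM is lowest in RCV replicates 1 and 2.

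The genes most like Cp over the 13 libraries were Igfbp3 (r = 0.95), a binding protein of insulin-like growth factors, Aldh18a1 (0.93), an enzyme of proline synthesis, and Arhgap4 (0.93), a GTPase-activating protein. Of the members, Atp7a was nearest to Cp (r = 0.79, and 0.53 within groups), with Mt3 at 0.76 (0.46 within groups) and Atox1 at 0.71 (0.41 within groups). Like the values for Mt2, these describe 13 libraries that also differ by group.

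In CPZ against CTL, where Cp and Mt2 were higher, markers of reactive astrocytes and microglia were higher and those of mature oligodendrocytes lower. All 6 reactive astrocyte markers (Gfap, Vim, Serpina3n and others) passed the test as higher in CPZ against CTL, 2 in RCV against CTL, and 5 in CPZ against RCV. Their summed level was 186 to 244 TPM in CTL, 913 to 1231 in CPZ and 523 to 832 in RCV, and Lcn2 was at 0 counts in CTL replicates 1, 3 and 5. Of the 10 general astrocyte markers (Slc1a3, Slc1a2, Aqp4 and others), 3 were higher in CPZ than in CTL and 1 in RCV than in CTL, while between CPZ and RCV 1 was higher and 1 lower, and their sum overlapped in all groups (1983 to 2368 TPM in CTL, 2134 to 2448 in CPZ and 2168 to 2469 in RCV). All 10 microglia markers (Cx3cr1, P2ry12, Tmem119 and others) were higher in CPZ than in both other groups, and 0 passed in RCV against CTL, where 8 had an unadjusted p under 0.05. The microglia sums were 413 to 491 TPM in CTL, 1550 to 3364 in CPZ and 656 to 932 in RCV. All 9 markers of mature oligodendrocytes (Mog, Mag, Mobp and others) were lower in CPZ than in CTL and 8 were lower in CPZ than in RCV, with sums of 1287 to 2423 TPM in CTL, 661 to 973 in CPZ and 1700 to 2840 in RCV.

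Beside these markers, the within-group correlation of log2 CPM with the reactive astrocyte score over the 13 libraries was 0.46 for Cp, 0.39 for Mt2 and 0.61 for Mt1. With the mature oligodendrocyte score it was -0.68 for Cp and -0.55 for Mt3. With the general astrocyte score it was 0.62 for Mt3, 0.56 for Mt1, 0.26 for Cp and 0.17 for Mt2. Lists of other cells gave larger values for Cp and Mt2 than the reactive astrocyte list did. For Cp it was 0.65 with the fibroblast score. For Mt2 it was -0.61 with the neuron score, 0.53 with the endothelial score and 0.47 with the red blood cell score. The part of these cell types in the members' values was not tested. Of 8 neuron markers, 0 were called and 0 had an unadjusted p under 0.05 in any comparison by edgeR. Of 8 endothelial markers 1 was called lower in RCV than in CTL, of 7 fibroblast markers 1 was lower in CPZ than in RCV, and of 5 red blood cell markers 2 were lower in CPZ than in RCV.

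Genes that act beside the members were taken from 4 lists of 62 genes, of which 50 were tested. Of these 50, 4 were called in CPZ against CTL (3 higher and 1 lower), where 10.2% of all genes were. Between RCV and CTL, 0 were called (0 also at an unadjusted p under 0.05 by edgeR), beside 0.374% of all genes. Between CPZ and RCV, 3 were called, all higher, beside 7.01% of all genes. Their median log2 fold changes were 0.06, -0.01 and 0.03 in these comparisons.

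None of the 11 genes that deliver copper to cytochrome c oxidase in mitochondria (among them Cox17, Sco1 and Sco2) was called, and none had an unadjusted p under 0.05 in any comparison by edgeR. Their median log2 fold changes were 0.02, 0.03 and 0.03. Cox17, the mitochondrial copper chaperone, was at a mean of 31.8 CPM in CTL, 32.2 in CPZ and 30.2 in RCV. Of 9 genes of copper uptake and handling, 8 were tested and 0 were called. Steap4, a metalloreductase, was the single one with an unadjusted p under 0.05 (CPZ against RCV, log2 fold change 1.22, SE 0.47, adjusted p = 0.152), at means of 1.87 CPM in CPZ and 0.819 in RCV.

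Of 17 further copper enzymes, 9 were tested, and Moxd1, a monooxygenase-like relative of dopamine beta-hydroxylase, was called. Moxd1 was 1.45-fold higher in CPZ than in CTL (log2 0.54, SE 0.15, edgeR adjusted p = 0.0318) and 1.53-fold higher in CPZ than in RCV (log2 0.62, edgeR adjusted p = 0.0318). In CPZ against CTL it was called in 14 of 24 alternatives (adjusted p 0.0133 to 0.223). In CPZ against RCV it was called in 12 of 24 (0.0211 to 0.19). With the choroid plexus covariate the latter call ended (edgeR adjusted p = 0.0976), while the log2 difference of Moxd1 was 0.70, beside 0.62 without it. Its CPM was 6.60 to 8.45 in CTL, 9.04 to 12.5 in CPZ and 5.02 to 8.67 in RCV, so that CPZ overlapped neither group. The mitochondrially encoded copper subunits of cytochrome c oxidase, mt-Co1 and mt-Co2, were not called, with log2 fold changes of 0.06 and -0.02 in CPZ against CTL, and SE 0.33 for mt-Co2.

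Of 25 zinc transporters and Mtf1 together, 22 were tested. Slc39a1, a zinc importer, had the smallest adjusted p of these lists in CPZ against CTL, at a mean of 33.9 CPM in CTL, 49.3 in CPZ and 35.1 in RCV, and groups of CPZ and both others did not overlap. It was 1.46-fold higher in CPZ than in CTL (log2 0.54, SE 0.094, edgeR adjusted p = 0.000916) and 1.40-fold higher than in RCV (edgeR adjusted p = 0.0071). Slc39a1 was called in all 24 alternatives in CPZ against CTL and in 23 of 24 in CPZ against RCV. In the latter the call ended with the choroid plexus covariate (edgeR adjusted p = 0.08), where the log2 difference was 0.43, beside 0.49 without it. Slc39a14, which carries zinc, iron and manganese, rose by log2 0.36 in CPZ against CTL (edgeR adjusted p = 0.0297), and Slc39a3 fell by 0.21 on the log2 scale (edgeR adjusted p = 0.011). Slc39a14 kept its call in 17 of 24 alternatives (0.00712 to 0.365) and Slc39a3 in 19 of 24 (0.00904 to 0.579). Slc39a8, a zinc and manganese importer, was higher in CPZ than in RCV (log2 0.67, edgeR adjusted p = 0.0476). This call was made in 4 of 24 alternatives (0.0381 to 0.41) and not with the choroid plexus covariate (log2 0.45). Mtf1, which encodes the factor of the metal-responsive element, was not called (log2 fold change -0.12 in CPZ against CTL, adjusted p = 0.474), nor was Slc30a1, a zinc exporter known as a target of MTF1 (0.01, adjusted p = 0.959).

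Metallothioneins are also induced by glucocorticoids, so 10 glucocorticoid-responsive genes were read beside them. In CPZ against CTL 1 was called, the kinase Sgk1 (log2 0.59, edgeR adjusted p = 0.0118), beside 10.2% of all genes. In RCV against CTL 0 were, beside 0.374% of all genes. In CPZ against RCV 2 were called lower, Hif3a (log2 -1.26, adjusted p = 0.0165) and Tsc22d3 (log2 -0.49, edgeR adjusted p = 0.0242), beside 1.88% of all genes. All 10 had a log2 fold change above 0 in RCV against CTL, with a median of 0.27, beside -0.004 over all genes. Their part in the metallothionein values was not tested.

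Depth was 5422264 to 7486387 counts per library in CTL, 6743067 to 8197289 in CPZ and 4605100 to 6990717 in RCV. At this depth the 10 members held between 23 counts (Atp7b) and 1117 counts (Sod1) per library. For the 22 pairs of replicates, the chi-square per gene ran from 4.23 to 16.3, where counting error would give 1, and each library was counted once.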

How the data were processed

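Libraries were prepared with the Kapa mRNA HyperPrep Kit and sequenced as paired reads. STAR, RSEM and mm10 are named in the submitters' processing notes, without versions or annotation, and the study's methods name RNASequest. Values deposited by the authors were estimated counts, without scaling for depth, and TPM, scaled for transcript length and depth, of each gene. The 92 spike-in rows without a gene name held 0% of the counts and were left out. No column of the authors' own comparisons was present.

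Groups came from the treatment labels. Estimated counts were rounded, filtered with filterByExpr, TMM-normalised and fitted with edgeR 4.0.16 (robust quasi-likelihood F test) in 1 fit of the 13 libraries with 1 mean per group, adjusted by the Benjamini-Hochberg method at 0.05. Log2 CPM used a prior count of 2. The script was checked on simulated counts. Members, lists and rule were chosen with earlier results of these data known. Named were all members, up to 4 called genes per related list and comparison, up to 3 first markers per list and the 3 genes most like each called member; Mtf1, Slc30a1, Cox17, mt-Co1, mt-Co2, Steap4, Sco1, Sco2, and markers at 0, were named after their values were seen. List scores were means of log2 CPM, and 1 marker of mature oligodendrocytes is not reported here and was left out of its list. Alternatives were DESeq2 1.42.0 (size factors, Wald test), limma 3.58.1 (voom; log2 TPM with pseudocounts of 1 and 0.1 and at least 1 TPM in 4 libraries, or no filter), no filter on counts, at least 10 counts in every library, only the 2 groups compared, the replicate number as a block, a choroid plexus covariate and each library left out. Positions came from GENCODE M21 on GRCm38 (54349 of 55401 identifiers matched) and promoters from RefSeq. R 4.3.3, Python 3.11.15 and matplotlib 3.10.9 were used.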

Additional observations from a re-analysis of the deposited data

Results flagged for a closer look

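The CPM of Slc31a1 in CTL replicate 3 was 43.2, against 26.6 in the nearest library of the group. The gap was 0.809 of the group's whole range, above Dixon's 95% limit for 5 samples. It was the 1 value so marked among 30 groups of libraries examined, and chance marks about 1 in 20 groups. Without this library, the log2 fold change of Slc31a1 was 0.55 in CPZ against CTL (edgeR adjusted p = 0.0778) and 0.02 in RCV against CTL, beside 0.33 and -0.20 with it. The same library had the highest summed choroid plexus level of its group, at 5162 TPM.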

How the results depend on the processing

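Members called in CPZ against CTL numbered 2, and 1 with limma on log2(TPM + 1) without a filter, where Cp had an adjusted p of 0.0573. With each library left out they numbered 1 to 4, with 1 without CPZ replicate 1 and 4 without CPZ replicate 4, where Atp7a (adjusted p = 0.0399) and Mt3 (adjusted p = 0.0492) joined by edgeR. In CPZ against RCV the 1 call became 0 with limma on log2 TPM (pseudocount 1 or 0.1, or no filter) and 2 with no filter on counts, where Atox1 was called (adjusted p = 0.0453), and it stayed 1 with each library left out. In RCV against CTL no alternative called a member or related gene.

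Cp was called in 23 of 24 alternatives in CPZ against CTL (adjusted p 6.24e-05 to 0.0573) and in 21 of 24 in CPZ against RCV (0.00012 to 0.307). Mt2 was called in 23 of 24 in CPZ against CTL (0.00101 to 0.0572), and Atp7a in 4 of 24 (0.0373 to 0.444). The direction of 28 member values reversed, none of them called either way. With the choroid plexus covariate, the log2 fold change in RCV against CTL became 0.25 for Slc31a1 and 0.055 for Atox1, and in CPZ against RCV it became -0.092 for Sod1 and -0.036 for Mt1. With limma on log2 TPM at pseudocounts of 1 (with or without a filter) and 0.1, it became -0.10 and -0.12 for Atp7a and 0.16 and 0.17 for Cp in RCV against CTL, and 0.018 and 0.019 for Ccs in CPZ against RCV. Ccs became 0.015 there with no filter on counts. With each library left out, values in RCV against CTL ran from -0.40 to 0.017 for Slc31a1, -0.083 to 0.11 for Atp7a and -0.066 to 0.011 for Mt3. Those in CPZ against RCV ran from -0.17 to 0.0081 for Atp7b, -0.052 to 0.032 for Ccs, -0.023 to 0.057 for Sod1 and -0.011 to 0.14 for Mt1.

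Related genes called in CPZ against CTL numbered 4, and 2 with limma on log2(TPM + 1), 1 with it unfiltered and 2 to 4 with each library left out (2 without CTL replicate 4 or CPZ replicate 1 or 2). In CPZ against RCV they numbered 3, and 1 with limma on log2 TPM at either pseudocount or unfiltered, 0 with the choroid plexus covariate, 1 with only the 2 groups compared and 1 to 3 with each library left out (1 without CPZ replicate 1, 2 or 3 or RCV replicate 1 or 3). All genes called in CPZ against CTL numbered 1522, and 993 with unfiltered limma on TPM and 1078 to 1680 with a library left out. In RCV against CTL the 56 became 131 with DESeq2, 16 with limma-voom and with unfiltered limma on TPM, 20 with at least 10 counts, 36 with the choroid plexus covariate and 21 to 87 with a library left out (21 without RCV replicate 2, 26 to 33 without CTL replicate 1, 3, 4 or 5 or RCV replicate 1, and 87 without CPZ replicate 3). In CPZ against RCV the 1050 became 584 and 503 with limma on TPM at pseudocounts of 1 and 0.1, 477 unfiltered, 554 with the choroid plexus covariate and 632 to 1170 with a library left out (632 and 693 without CPZ replicates 1 and 2). The cause of these differences was not tested, beyond the fewer samples or other genes that define each alternative.

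The replicate numbers were used as a block as an alternative. Same-numbered libraries had deviations correlated at -0.215 to 0.18 over 12 pairs, beside -0.237 to 0.323 over 44 other pairs. Of 13 libraries, 1 correlated best with its own number, so these values show no pairing by number. Whether same-numbered libraries shared a batch was not tested. With the replicate block, related genes called numbered 2 in CPZ against CTL and 1 in CPZ against RCV, and Cp (adjusted p = 0.0102) and Mt2 (0.00851) stayed called in CPZ against CTL. Counts of 23 to 121 per library limit what can be seen for Atp7b and Atp7a.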
